A study of Macaca mulatta with 13 samples.

Results

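Blood mononuclear cells of 4 peer-reared rhesus macaques were compared with those of 5 maternally reared macaques, chosen by the rearing condition in the labels as 9 of the 13 arrays of the series. All animals were 4 months old. Infants in the maternal group were raised by their mothers, and those in the peer group with other young animals in place of a mother. Surrogate-peer reared animals, the 4 remaining arrays, entered only the mean levels and an alternative fit. Mean levels set the filter on low values, the quartiles of level and the choice of each gene's brightest probe set. Total RNA of each animal was hybridised to 1 Affymetrix rhesus genome array. The sources used here do not give the animals' sex, whether peers came from a shared social group, or when blood was drawn, so p-values measure the spread between these animals only. The series asks whether early rearing changes gene expression in leukocytes.

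Peripheral blood mononuclear cells are a mixture of T, B and natural killer (NK) lymphocytes, monocytes, dendritic cells and rare basophils. NK cells and effector T cells kill targets with granzymes and granulysin, monocytes take up microbes and secrete cytokines, and type I interferon switches on antiviral genes in nearly every cell type. Stress hormones reach these cells too: cortisol acts through the glucocorticoid receptor and noradrenaline through beta-adrenergic receptors and cyclic AMP. In such bulk samples, fewer cells of a type and less RNA per cell cannot be told apart.

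The values were log2 expression per probe set, a set of short DNA probes for 1 transcript, and 26352 probe sets bright enough by the filter were tested. Markers of the expected cells were among them: CD5 and CD28 of T cells, MS4A1, CD79A and CD79B of B cells, GZMB and NKG7 of cytotoxic cells, and CD14, LYZ, FCN1 and CSF1R of monocytes. The platelet genes PF4 (12.90 to 13.58 over the 9 arrays) and PPBP (13.40 to 14.25) and the red cell genes HBB and ALAS2 were also above the filter, so platelet and red cell RNA was present in both groups. Neutrophil granule genes differed in level. ELANE was below the filter, MPO lay at 6.02 to 6.75, CTSG at 6.33 to 6.78 and LCN2 at 6.13 to 8.08. CAMP (11.27 to 13.08) and MMP9 (9.23 to 11.59) were bright in both groups. For CD3D, CD3E, CD2, LCK, PRF1 and CXCR2 no probe set with a single gene symbol was used here.

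The arrays differed in technical measures as well. Within an array, the log2 values had an SD of 2.11 ± 0.010 (SD, n = 5) in maternal and 2.14 ± 0.012 (SD, n = 4) in peer arrays without overlap (two-sided exact permutation p = 0.00794, the smallest 4 against 5 can give; adjusted p = 0.0119 over 3 measures). Array medians over all probe sets, tested or not, did not overlap either (6.05 to 6.06 against 5.995 to 6.04, with the same p values). The 3' to 5' log2 ratio of the actin and GAPDH controls, which is higher in degraded RNA, was 1.85 ± 0.28 (SD, n = 5) in maternal and 1.54 ± 0.15 (SD, n = 4) in peer arrays (exact permutation p = 0.0794, adjusted p = 0.0794). Their part in the results below was not tested. Among tested probe sets the median log2 fold change, peer minus maternal, went from -0.07 in the dimmest quartile of mean level to 0.11 in the brightest, against 0.004 over all. A small positive value of a brightly expressed gene is therefore common.

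All peer animals lay below all maternal animals for the cytotoxic granule genes GZMB, GZMH and CST7 and for the interferon-induced gene IFIT1, and above them for EGR2, CLSPN, the IgE receptor gene FCER1A, the RNA polymerase subunit gene POLR1C and the splicing factor gene SRSF5. EGR2 was below the filter cutoff of 6.04 in every maternal animal. No probe set passed the adjusted threshold of 0.05 with these 9 arrays. Limma, a linear model with a moderated estimate of the spread, called 0 of 26352 probe sets (0%), with a smallest adjusted p of 0.0727. At an unadjusted p under 0.05 there were 5878 probe sets (22.3%), 4087 higher (15.5%) and 1791 lower (6.8%) in peer animals, where chance gives 1318 in all. All 4 peer values lay above all 5 maternal values for 1483 probe sets (5.63%) and below them for 1014 (3.85%). That split depended on scaling: 1081 were higher and 2016 lower after centring each array on its median, and 1076 and 1341 after quantile normalization.

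The count of 0 depended on the arrays used. A fit over all 13 arrays, which adds the surrogate-peer arrays to the estimate of the spread and leaves the fold changes as they are, called 93 (0.353%), 82 higher (0.311%) and 11 lower (0.0417%). Without maternal array 1 the 9-array test called 2330, without maternal array 5 it called 1, and without any other single array it called 0. Maternal array 1 had a mean correlation of 0.979 with the peer arrays and 0.951 with the other maternal arrays, and maternal array 5 had 0.926 and 0.945. Maternal array 5 was the highest or the lowest of the 9 arrays for 39.9% of tested probe sets, and maternal array 1 for 10.9%. Maternal animals also varied more among themselves: for 76.5% of probe sets their SD was the larger, with a median SD of 0.23 against 0.14.

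**Figure D1:**
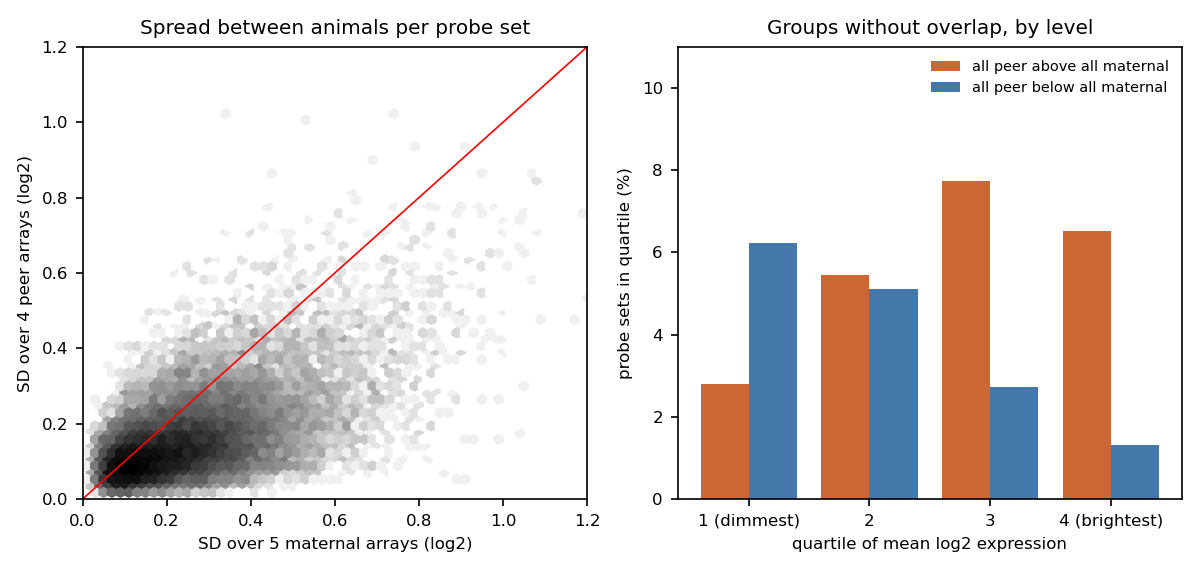
Left, the SD of each tested probe set over the 5 maternal arrays (x, log2) against that over the 4 peer arrays (y, log2), darker where more probe sets fall (log count scale), with the red line marking equality and both axes ending at 1.2; 76.5% of probe sets lie below it. Right, the percentage of probe sets in each quartile of mean level whose groups do not overlap: peer above maternal goes from 2.79% in the dimmest quartile to 6.53% in the brightest, and peer below maternal from 6.24% to 1.32%.

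Cytotoxic granule genes were the clearest lower group. GZMB, the granzyme that activates caspases in target cells, measured 13.01, 12.37, 12.68, 12.82 and 12.22 in the maternal animals and 11.90, 11.16, 10.96 and 11.23 in the peer animals. Every peer value lay below every maternal value, a mean difference of -1.31 ± 0.22 (SE), or 2.47-fold lower (limma adjusted p = 0.0941). GZMH, a related granzyme of NK cells, measured 12.41, 11.64, 12.25, 11.47 and 11.44 in maternal and 11.14, 10.04, 9.001 and 10.13 in peer animals (-1.76 ± 0.39). CST7, cystatin F, which restrains proteases in cytotoxic granules, measured 9.75, 9.54, 9.71, 9.79 and 10.08 against 9.17, 8.09, 8.67 and 8.61 (-1.14 ± 0.20, limma adjusted p = 0.102). Peer animal 1 had the highest peer value of all 3 genes.

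Other cytotoxic genes were less separated. FCGR3, the IgG receptor CD16, lay at 7.58 to 9.63 in maternal animals and at 6.57 to 7.43 in peer animals, without overlap (-1.33 ± 0.37). It was highest in maternal animal 5 and, among maternal animals, lowest in animal 1. Without maternal arrays 2 and 5 its difference was -0.935, and those of GZMB, GZMH and CST7 were -1.52, -1.96 and -1.12. NKG7, a granule membrane protein, lay at 9.38 to 10.47 and at 8.42 to 9.58, with overlap. GNLY, encoding granulysin, gave -0.49 ± 0.098 at its dimmer probe set without overlap. At its brighter probe set maternal animal 5 measured 6.63 against 11.99 to 13.23 in the other maternal animals and 10.66 to 11.45 in peer animals, so the groups overlap there. The GZMA probe set with the smallest p gave 0.22 ± 0.19, and its other probe sets 0.11 and 0.20. NCAM1, the adhesion molecule CD56, had a positive value (0.56 ± 0.17).

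Over the whole list of NK and cytotoxic genes, 15 of 20 members tested were negative, and the median log2 fold change was -0.55 against 0.004 over the brightest probe set of all 8986 named genes. Groups did not overlap for 4 members, all lower (20%: GZMH, FCGR3, GZMB and CST7), beside 4.12% of named genes lower and 5.1% higher. After centring, 4 members were again lower, beside 8.11% of named genes lower and 3.63% higher, and after quantile normalization 4, beside 5.94% and 3.18%. The list score, the mean over members of the value minus its mean over the 9 arrays, was -0.19 to 0.52 in maternal animals and -0.57 to 0.17 in peer animals. Without maternal arrays 2 and 5, whose monocyte and interferon scores were the highest, the median was -0.89, and 9 of 20 did not overlap, all lower, beside 9.04% of named genes.

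**Figure D2:**
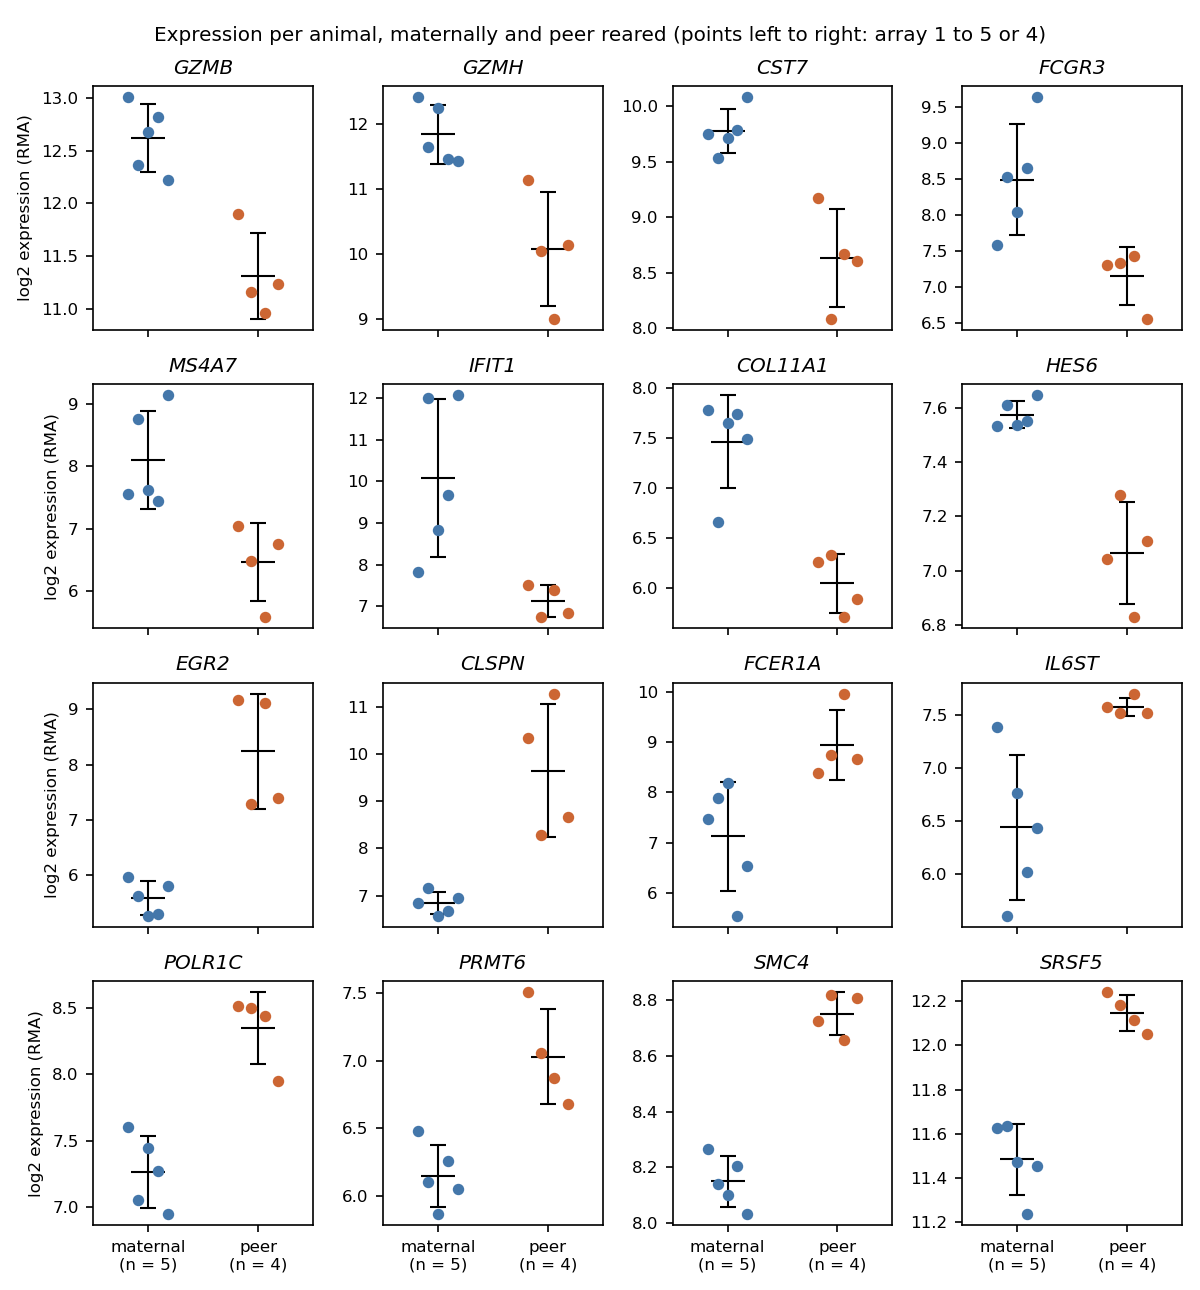
Log2 expression (RMA) of 16 genes in each animal, with maternal animals in blue (n = 5), peer animals in orange (n = 4), horizontal bars at the mean and error bars of 1 SD; each panel has its own y axis, which does not start at 0. The groups do not overlap in any of these panels, IFIT1 spreads from 7.83 to 12.07 among maternal animals, and EGR2 and CLSPN each split the peer animals into a higher pair (1 and 3) and a lower pair (2 and 4).

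T cell genes had positive values in 13 of 14 members tested, with a median of 0.46. BCL11B, a transcription factor that keeps T cell identity, measured 6.23, 5.80, 5.84, 5.64 and 5.83 in maternal and 6.78, 6.29, 6.64 and 6.36 in peer animals (0.64 ± 0.14). All peer values lay above all maternal ones. The same held for LAT, the adaptor of the T cell receptor (0.50 ± 0.16), and CCR7, a lymph node homing receptor of naive T cells (0.73 ± 0.29). That makes 3 of 14 (21.4%), beside 5.1% of named genes higher. Among them, BCL11B had a maternal mean of 5.87, below the filter cutoff of 6.04, which it passed through higher values in other arrays. After centring the count was 2, beside 3.63% of named genes, and after quantile normalization 1, beside 3.18%. Other members had small values: CD4 (0.11), ZAP70 (0.11), CTLA4 (0.11), CD28 (0.055) and CD6 (-0.052). CCR7 was 10.26 to 10.60 in maternal animals 1, 3 and 4, against 9.26 and 9.40 in animals 2 and 5 and 10.62 to 10.98 in peer animals. TCF7, a factor of naive and memory T cells, stood between 12.99 and 13.09 in peer and between 11.70 and 13.01 in maternal animals. CD8A and CD8B, the chains of the CD8 co-receptor, gave 0.68 ± 0.21 and 0.86 ± 0.26 with overlap, and the dimmer CD8A probe set 0.92 ± 0.16 without. The T cell score was -0.51 and -0.45 in maternal animals 2 and 5 and -0.17 to 0.10 in the other 3, against 0.09 to 0.37 in peer animals. With maternal arrays 2 and 5 left out, the list median was 0.17, with 3 of 14 above all remaining maternal values, beside 8.12% of named genes.

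Monocyte genes had a median of -0.53, with 17 of 20 negative. MS4A7, a membrane protein of monocytes and macrophages, was the single member of 20 without overlap (5%, beside 4.12% of named genes lower). It measured 7.55, 8.76, 7.63, 7.45 and 9.13 in maternal and 7.04, 6.48, 5.58 and 6.75 in peer animals (-1.64 ± 0.42). CSF3R, the G-CSF receptor, gave -1.06 ± 0.39, and CD14, which presents lipopolysaccharide to Toll-like receptor 4, -0.86 ± 0.47, both with overlap. Lysozyme, LYZ (0.69 ± 0.38), FCN1 (0.58 ± 0.465) and MS4A6A (0.30 ± 0.43) had the opposite sign. CSF1R gave -0.33 ± 0.22. Maternal animals 2 and 5 had monocyte scores of 0.81 and 0.91, whereas the other 3 ran from -0.48 to 0.18 and the peer animals from -0.59 to 0.12. Leaving out those maternal arrays, the median was -0.11, and without maternal array 5 alone -0.34.

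Type I interferon genes differed widely among the maternal animals themselves. IFIT1, which binds viral RNA lacking host cap marks, measured 7.83, 11.997, 8.83, 9.67 and 12.07 in maternal and 7.52, 6.75, 7.38 and 6.84 in peer animals. The groups did not overlap, and the difference was -2.96 ± 0.84 (limma adjusted p = 0.123), or -1.66 without maternal arrays 2 and 5. ISG20, an antiviral exonuclease, also did not overlap (-0.37 ± 0.11). ISG15, a ubiquitin-like modifier, measured 8.11, 10.50, 8.88, 8.81 and 10.56 against 7.93, 7.71, 8.17 and 8.16, so that maternal animal 1 lay among the peer animals. MX1, a GTPase that blocks viral replication, gave -1.49 ± 0.64, and IFI27 -1.16 ± 0.37.

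Of 30 interferon members tested, 26 were negative and the median was -0.38, with 2 lower (6.67%, beside 4.12% of named genes) and 0 higher without overlap. At an unadjusted limma p under 0.05, 10 of the 30 members were lower and 1 higher, beside 6.8% and 15.5% of all tested probe sets. Scores were 1.05 and 1.11 in maternal animals 2 and 5, -0.34, -0.25 and -0.015 in animals 1, 3 and 4, and -0.56 to -0.045 in peer animals. The median without maternal arrays 2 and 5 was -0.15, with 18 of 30 negative and 3 lower and 1 higher without overlap, beside 9.04% and 8.12% of named genes. The interferon gamma and MHC class I list had 13 of 18 negative and a median of -0.22. There, TAPBP, tapasin of the peptide loading complex, was lower (-0.26 ± 0.094) and ERAP1, a peptide-trimming protease, higher (0.22 ± 0.082) without overlap.

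**Figure D3:**
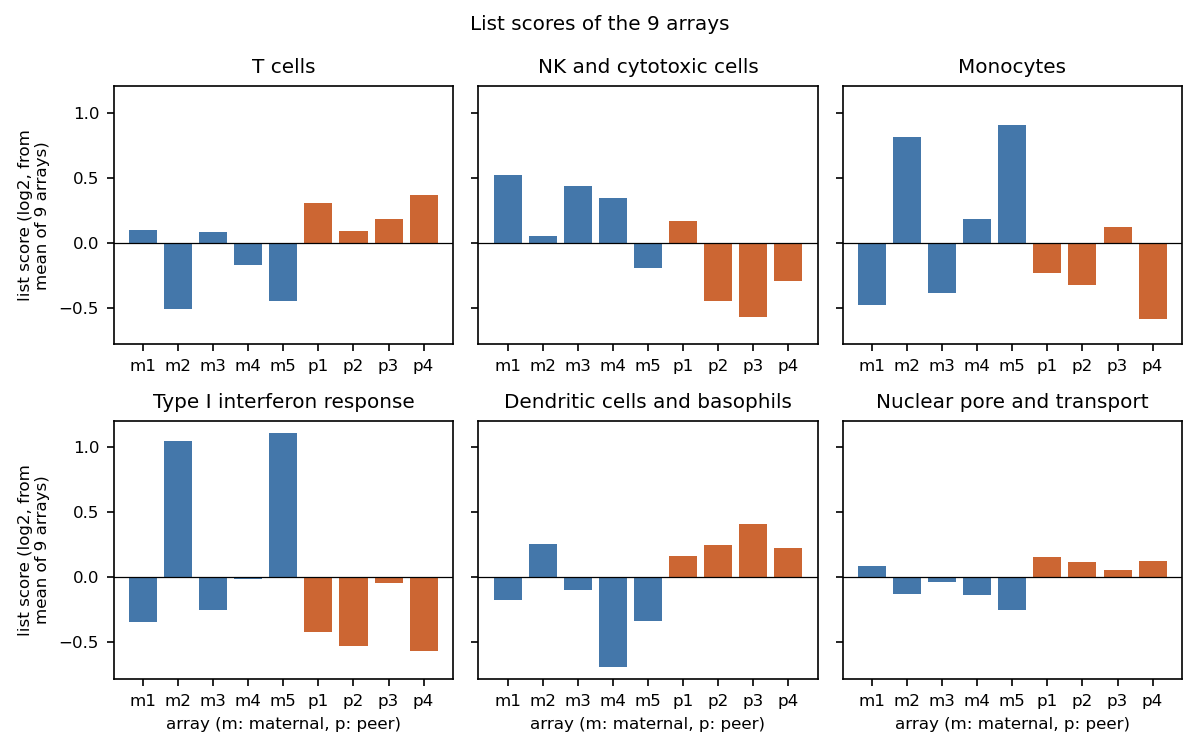
Scores of 6 gene lists (y, mean log2 deviation of the members from their mean over the 9 arrays) for each array (x: maternal m1 to m5 in blue, peer p1 to p4 in orange). Maternal arrays 2 and 5 are high for monocyte genes (0.81 and 0.91) and type I interferon genes (1.05 and 1.11) and low for T cell genes (-0.51 and -0.45), whereas NK and cytotoxic genes are highest in maternal arrays 1, 3 and 4 (0.52, 0.43 and 0.34).

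Basophil and dendritic cell markers had positive values in 9 of 10 members tested, with a median of 0.24, or 0.42 without maternal arrays 2 and 5, 0.39 without array 2 and 0.15 without array 4. FCER1A, the alpha chain of the high-affinity IgE receptor, measured 7.48, 7.89, 8.19, 5.55 and 6.53 in maternal and 8.39, 8.75, 9.96 and 8.67 in peer animals (1.82 ± 0.54). Its groups did not overlap, 1 of 10 members (10%), beside 5.1% of named genes higher. CPA3, a mast cell and basophil protease, measured 6.76, 6.47, 7.17, 5.37 and 6.07 against 7.14, 7.83, 8.84 and 7.43 (1.44 ± 0.42). Only maternal animal 3 reached above the lowest peer value. Peer animal 3 was highest and maternal animal 4 lowest for both genes. HDC, another basophil marker, was below the filter. The other members had values from -0.28 (CD1C) to 0.61 (CCR3), among them GATA2 (0.13), CLEC10A (0.10) and MS4A3 (0.042).

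B cell genes differed little. Of 13 members tested, 10 were negative with a median of -0.18, and 1 was lower without overlap (7.69%, beside 4.12% of named genes). That was FCRLA, a B cell Fc receptor-like protein (-0.68 ± 0.17), whose other probe set gave 0.12. MS4A1, the antigen CD20, gave -0.21 ± 0.31 and CD79B, a chain of the B cell receptor, -0.32 ± 0.25. The median was 0.03 without maternal arrays 2 and 5, 0.01 without array 2 alone, -0.02 without peer array 3 and -0.31 without peer array 2. In the plasma cell list 0 of 9 were without overlap, with a median of -0.21. JCHAIN, which joins IgM and IgA units, gave 0.05 ± 0.28, and PRDM1, the factor that drives plasma cell formation, -0.66 ± 0.25, with -0.88 ± 0.23 and no overlap at its dimmer probe set. Platelet (0 of 12 without overlap, median -0.28), red cell (0 of 7, median -0.12) and neutrophil granule lists (0 of 5, median -0.24) had scores whose ranges overlapped between the groups. The platelet median was -0.09 without maternal array 2 and -0.48 without maternal array 5, the red cell median 0.02 without peer array 2 and the neutrophil median -0.16 without maternal array 4.

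Immediate early genes, which cells switch on within minutes of a stimulus, were not uniform. EGR2, a transcription factor induced through the T cell receptor, measured 5.98, 5.63, 5.27, 5.30 and 5.80 in maternal and 9.16, 7.29, 9.11 and 7.39 in peer animals (2.64 ± 0.42, limma adjusted p = 0.0862). The mean difference corresponds to 6.25-fold, and the peer values formed a higher and a lower pair. All maternal values of EGR2 lay below the filter cutoff of 6.04, so it was tested only because of higher values in other arrays. MYC, a driver of growth, also lay above all maternal values in all peer animals (0.89 ± 0.27), whereas IER5 lay below (-0.63 ± 0.17). In all, 9 of 15 members were positive, 2 were higher (13.3%) and 1 lower (6.67%) without overlap, beside 5.1% and 4.12% of named genes. The median was 0.24, but 0.05 without peer array 3, 0.09 without peer array 1, 0.10 without maternal array 2 and 0.12 without maternal array 5, and up to 0.38 without peer array 4. CLSPN, claspin, the adaptor that activates the replication checkpoint kinase CHK1, measured 6.83, 7.16, 6.58, 6.67 and 6.96 against 10.35, 8.29, 11.28 and 8.66 (2.81 ± 0.54). Peer animals 1 and 3 were again the higher pair. CLSPN was the single member of 28 cell cycle and replication genes without overlap (3.57%, beside 5.1% of named genes higher). The median of that list was -0.05.

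The glucocorticoid list held 3 members that were lower without overlap. TSC22D3, the glucocorticoid-induced leucine zipper GILZ, measured 13.69, 13.98, 13.79, 14.33 and 14.40 in maternal and 13.35, 13.58, 13.43 and 13.19 in peer animals (-0.65 ± 0.16, limma adjusted p = 0.118). TXNIP, an inhibitor of thioredoxin (-0.52 ± 0.14; its 4 other probe sets overlapped at -0.72 to -0.55), and the clock gene PER1 (-0.31 ± 0.096) also lay below all maternal values. These were 3 of 19 members (15.8%, beside 4.12% of named genes), with 0 higher. FKBP5, a co-chaperone induced by cortisol, gave -0.04 ± 0.18, and NR3C1, the receptor itself, 0.06 ± 0.14, with other probe sets at -0.27 with overlap and 0.39 without. The median was -0.04, with a sign that changed when any of several single arrays was left out (up to 0.08 without peer array 4). For adrenergic and cyclic AMP signalling it was -0.09, and PDE4A, which degrades cyclic AMP, was the 1 member of 23 without overlap (-0.42 ± 0.15), a share of 4.35% beside 4.12% of named genes. At an unadjusted limma p under 0.05, 6 of the 23 members of that list were higher and 2 lower, beside 15.5% and 6.8% of all tested probe sets. PDE7A, of the same enzyme family as PDE4A, gave 0.74 ± 0.20.

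Inflammatory regulators split in direction. NFKBIE, an inhibitor of NF-kB, measured 8.87, 9.01, 8.96, 9.04 and 8.98 in maternal and 8.67, 8.64, 8.64 and 8.75 in peer animals (-0.30 ± 0.070), a small difference with little spread. ATF3, a stress-induced factor, was lower as well (-0.42 ± 0.15). So 2 of 17 NF-kB and AP-1 factors (11.8%) were lower without overlap and 0 higher, beside 4.12% and 5.1% of named genes. After centring 2 were again lower, beside 8.11% of named genes. The median of that list was -0.11. CCL5, a chemokine of cytotoxic lymphocytes, measured 9.99, 10.21, 10.46, 10.51 and 10.12 against 9.66, 8.89, 9.71 and 9.53 (-0.82 ± 0.18). IL6ST, the shared receptor chain gp130, lay at 5.61 to 7.39 in maternal animals and at 7.52 to 7.70 in peer animals (1.14 ± 0.31). IL23A, a cytokine subunit, gave 0.44 ± 0.13. The list of inflammatory cytokines and enzymes thus had 2 higher (14.3%) and 1 lower (7.14%) of 14, beside 5.1% and 4.12% of named genes. Its median was -0.003, which had the opposite sign under 5 of 9 omissions of a single array.

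Genes of RNA synthesis, processing and nuclear transport were mostly positive. POLR1C, a subunit shared by RNA polymerases I and III, measured 7.60, 7.05, 7.45, 7.27 and 6.95 in maternal and 8.52, 8.50, 8.44 and 7.95 in peer animals (1.09 ± 0.17), and its other probe set gave 1.40 ± 0.30, also without overlap. It was the single member of 18 RNA polymerase genes to do so, a share of 5.56% beside 5.1% of named genes. The list median was 0.14, near that of the brightest quartile, and 0.03 without peer array 4, 0.06 without maternal array 5 and 0.24 without peer array 2. SRSF5, a serine/arginine-rich splicing factor, measured 11.63, 11.63, 11.47, 11.24 and 11.45 against 12.24, 12.18, 12.12 and 12.05 (0.66 ± 0.098, limma adjusted p = 0.0862), and its other probe sets gave 0.50 and 0.98. RBM48, a protein of the minor spliceosome, gave 0.87 ± 0.17. Of 57 splicing factors and hnRNPs, 51 were positive, 8 higher (14%, beside 5.1% of named genes) and 0 lower without overlap, with a median of 0.20.

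In the nuclear pore and transport list, 35 of 44 were positive with a median of 0.26. Groups did not overlap for 9 higher (20.5%) and 1 lower member (2.27%), beside 5.1% and 4.12% of named genes. XPOT, the exporter of tRNA, measured 9.22, 9.05, 8.83, 8.54 and 8.71 in maternal and 9.65, 9.50, 9.33 and 9.48 in peer animals (0.62 ± 0.14). The inner pore ring subunit NUP205 (0.59 ± 0.15), the import receptor IPO7 (0.51 ± 0.13) and the pore subunit NUP54 (0.42 ± 0.10) were alike, whereas NUP50 was lower (-0.34 ± 0.11). Scores of this list were lowest in maternal animal 5 (-0.25) and highest in peer animal 1 (0.16).

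Zinc finger genes named ZNF formed the largest list: 144 of 194 were positive, 25 higher (12.9%) and 3 lower (1.55%) without overlap, beside 5.1% and 4.12% of named genes, and the median was 0.20. After centring 16 were higher and 7 lower of 194, beside 3.63% and 8.11% of named genes. ZNF397 measured 6.23, 6.08, 5.66, 5.98 and 5.99 in maternal and 6.78, 6.79, 7.001 and 7.11 in peer animals (0.93 ± 0.13, limma adjusted p = 0.0735), though its other probe set gave 0.06. The maternal mean of ZNF397 was 5.99, below the filter cutoff of 6.04. Oxidative phosphorylation (35 of 42 positive, median 0.14) and cytosolic ribosomal proteins (27 of 34, median 0.13) had 1 (2.38%) and 2 (5.88%) members higher without overlap and 0 lower, beside the same 5.1% and 4.12% of named genes. These medians are near the 0.11 of the brightest quartile of all probe sets. Without maternal array 5 they were 0.07 and 0.075. They were 0.04 and 0.03 without maternal arrays 2 and 5, and those of splicing, nuclear transport and ZNF genes 0.13, 0.17 and 0.13.

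**Figure D4:**
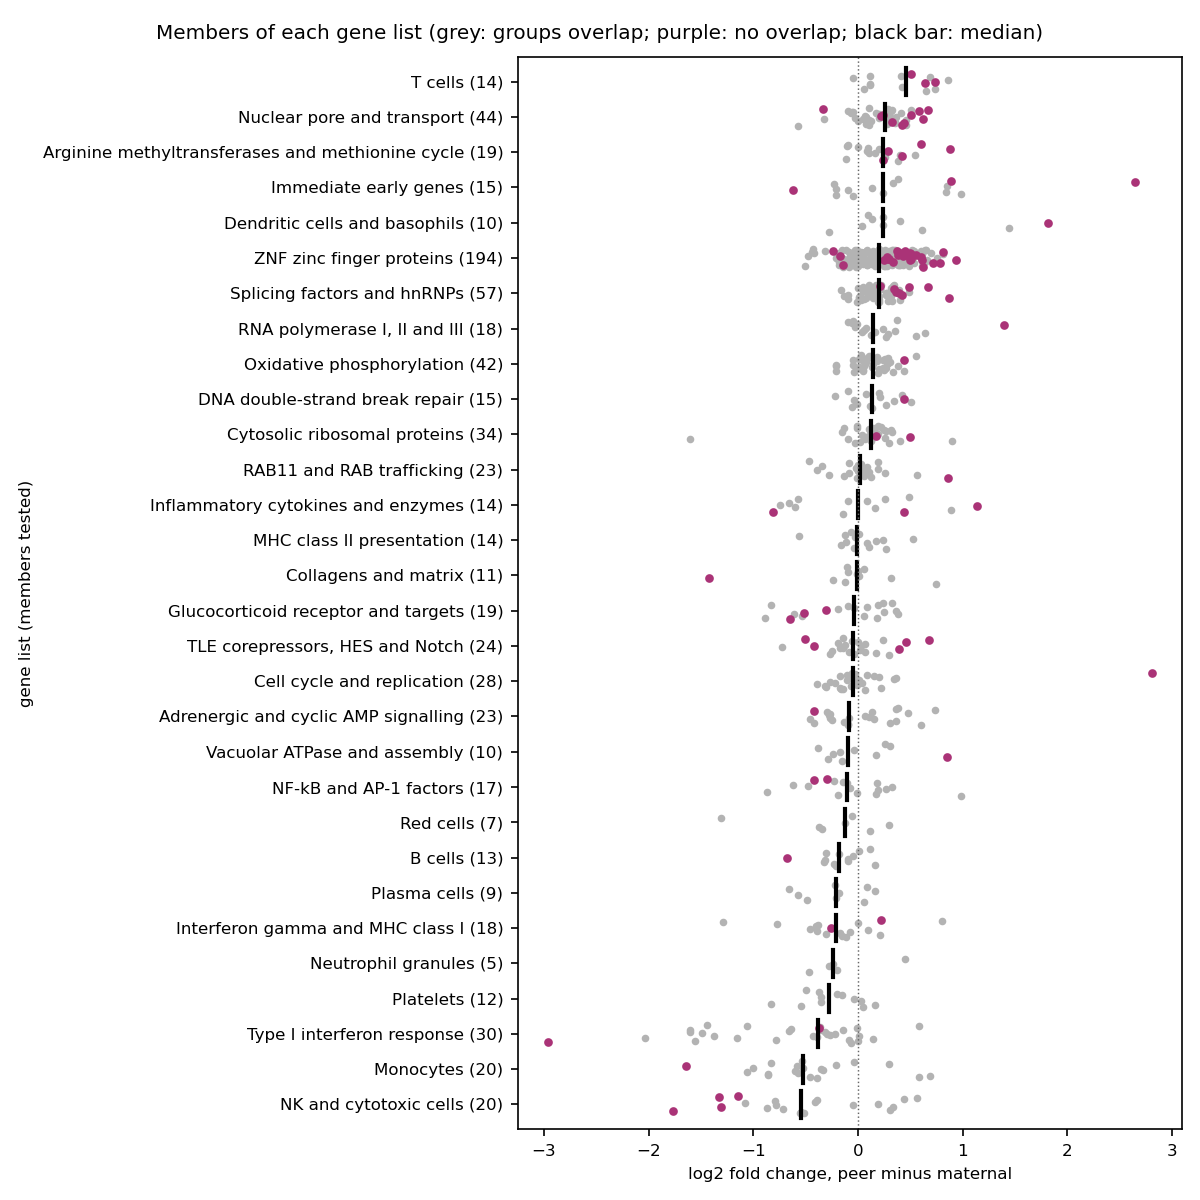
Log2 fold change, peer minus maternal (x), of every tested member of 30 gene lists (y, with the number tested), each gene by its brightest probe set; purple points are members whose groups do not overlap, grey points overlap, and black bars are list medians. Medians run from -0.55 for NK and cytotoxic genes to 0.46 for T cell genes, and EGR2 (2.64), CLSPN (2.81) and IFIT1 (-2.96) stand far from the other members of their lists.

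Enzymes of methyl transfer were positive in 16 of 19 members tested, with a median of 0.24 and 5 higher (26.3%) and 0 lower without overlap, beside 5.1% and 4.12% of named genes. The median was 0.16 without peer array 4. PRMT6, which methylates arginine in histone H3, measured 6.48, 6.10, 5.87, 6.26 and 6.05 in maternal and 7.51, 7.06, 6.87 and 6.68 in peer animals (0.88 ± 0.18). MAT2A, which makes the methyl donor S-adenosylmethionine, gave 0.60 ± 0.15, with other probe sets at 0.42 and 0.46. Without maternal arrays 2 and 5, 6 were higher and 2 lower of 19, beside 8.12% and 9.04% of named genes.

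In the list of TLE corepressors, HES and Notch genes, 10 of 24 members were positive and 14 negative, and the members named here went in both directions. HES6, an inhibitor of HES1, measured 7.53, 7.61, 7.54, 7.55 and 7.65 against 7.04, 7.28, 6.83 and 7.11 (-0.51 ± 0.096), and HES1, the main Notch target, 6.34, 6.46, 6.38, 6.30 and 6.52 against 5.74, 6.17, 6.05 and 5.94 (-0.42 ± 0.10). The Notch coactivators MAML2 (0.68 ± 0.14) and MAML3 (0.39 ± 0.093) lay above all maternal values. At the probe set with the smallest p, the corepressor TLE3 gave -0.62 ± 0.12, and its 3 other probe sets -0.33 to -0.14. RUNX1, a transcription factor of blood cell development, was higher without overlap at its brightest probe set (0.46 ± 0.16), whereas its 3 other probe sets gave -0.50 to -0.21 with overlap. The list had 3 higher (12.5%) and 2 lower (8.33%) of 24, beside 5.1% and 4.12% of named genes. Its median was -0.05, -0.11 after centring and between -0.08 and -0.015 without single arrays.

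Other genes had some of the smallest p values. PDE6A, a cyclic GMP phosphodiesterase known from rod photoreceptors, measured 5.63, 5.85, 5.63, 5.42 and 5.63 in maternal and 6.67, 6.41, 6.82 and 6.52 in peer animals (0.97 ± 0.11, limma adjusted p = 0.0727). Every maternal value of PDE6A lay below the filter cutoff of 6.04, so it was tested only because of higher values in other arrays. SMC4, a condensin subunit, measured 8.27, 8.14, 8.10, 8.21 and 8.03 against 8.73, 8.82, 8.66 and 8.81 (0.60 ± 0.079). TRMT11 (0.68 ± 0.095) and TRNT1 (0.58 ± 0.088) encode enzymes of tRNA modification and of CCA addition to tRNA ends. The maternal mean of TRMT11, 5.94, also lay below the filter cutoff. On the lower side, COL11A1, a fibrillar collagen chain, measured 7.77, 6.66, 7.64, 7.74 and 7.49 against 6.26, 6.32, 5.70 and 5.88 (-1.42 ± 0.24), and RPS6KA1, the kinase RSK1, gave -0.52 ± 0.10. The histone gene H2AC25 was lower without overlap at both of its probe sets (-0.97 and -1.61).

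The genes that passed limma's threshold in the 13-array fit included POLR1C (adjusted p = 0.0343) and COL11A1, CST7, HES6, TLE3, PRMT6 and ZNF397 (adjusted p = 0.0486 each). There, POLR1C, PRMT6 and ZNF397 rose and COL11A1, CST7, HES6 and TLE3 fell in peer animals relative to maternal animals. The nuclear pore assembly factor AHCTF1 (0.90 ± 0.15; its other probe sets overlapped at 0.004 and 0.28) and the transporter gene SLC35G1 (1.28 ± 0.28) also rose in that fit.

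The remaining lists held few separated members. TDP2, which removes trapped topoisomerase from DNA ends, measured 9.80, 9.74, 9.76, 9.71 and 9.67 in maternal and 10.26, 10.23, 10.11 and 10.08 in peer animals (0.43 ± 0.073, limma adjusted p = 0.0941), the single member of 15 double-strand break repair genes (6.67%) without overlap. VMA21, an assembly factor of the vacuolar proton pump (0.85 ± 0.17), was 1 of 10 genes of that pump (10%), and RAB11FIP2, an effector of recycling endosomes (0.86 ± 0.18), 1 of 23 RAB trafficking genes (4.35%). Of all named genes, 5.1% were higher without overlap. The medians of the repair, pump and RAB lists were 0.13, -0.095 and 0.02. The second was 0.08 when each gene was the mean over its probe sets and -0.035 without peer array 3, and the last was -0.04 after centring and -0.03 without peer array 1. MHC class II genes had 7 positive and 7 negative members, 0 of 14 without overlap and a median of -0.009, or 0.17 without maternal array 2. COL11A1 was the 1 lower member of 11 collagen and matrix genes (9.09%, beside 4.12% of named genes). The median of that list was -0.01, or -0.10 without maternal array 1.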

How the data were processed

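The authors deposited log2 expression values, computed per probe set by RMA per the submitters' processing notes. Which version and settings were used, and which arrays were normalized together, is not given in the sources used here. The log2 scale was read from the values, 2.79 to 15.08. From 52865 probe sets, 158 controls were left out, 99 with identifiers starting with AFFX and 59 with RPTR. Tested were the 26352 whose mean over the 13 arrays exceeded the median of those means, 6.04. A probe set could thus pass while 1 group lay below that cutoff, as EGR2 and PDE6A did in maternal animals. The platform annotation gave 15332 of the tested probe sets (58.2%) 1 symbol, and 8986 named genes without a LOC symbol.

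Peer and maternal arrays were compared with limma 3.58.1 in R 4.3.3 (lmFit, eBayes), two-sided, with Benjamini-Hochberg adjustment over all tested probe sets. Errors are standard errors of the fit unless marked SD. The labels give no replicate numbers, so replicates are numbered in accession order and pair nothing. Named genes were, per direction, the 10 with the smallest p, the 8 with the largest change without overlap and up to 6 called in the 13-array fit, at the probe set with the smallest p; members of 30 lists, at the brightest probe set, up to 8 without overlap or else the 3 with the smallest p; and the granzymes, IFIT1, IFI27 and ISG15. Other members named here, and cell markers, were picked after their values were seen. Genes and lists were chosen with earlier results of these data known, so lists carry no p. Array number, not depth, limits the precision. The test was checked on simulated data. Alternatives were other array sets, filters, scalings, array weights and priors, and leaving out arrays. No sequence was used here.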

Additional observations from a re-analysis of the deposited data

Results flagged for a closer look

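Over 110 probe sets named by the rule and 3 array measures, 226 groups were checked. In 9 of these groups an animal's gap to its nearest neighbour exceeded the critical share of the group's range. Chance alone gives about 5% of unselected, independent groups. These probe sets were picked partly for small p or non-overlap, and some share a gene. That rate therefore cannot say whether 9 of 226 is what chance gives. Peer animal 4 was the flagged animal in 5 of the 9 groups. It was low for POLR1C at both probe sets (7.95, nearest 8.44, and 8.98, nearest 9.62) and for FCGR3 (6.57, nearest 7.31), and high for MYC (11.41, nearest 11.04) and RPL7 (13.71, nearest 13.68). Peer animal 2 was high for MAML2 (10.50, nearest 10.40). Among maternal animals, animal 2 was low for COL11A1 (6.66, nearest 7.49), animal 4 for NUP160 (7.76, nearest 8.21) and animal 5 for IL23A (6.59, nearest 7.05). All 4 peer values of POLR1C and FCGR3 still lay beyond the maternal values.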

How the results depend on the processing

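The count of called probe sets was 0 as reported and also 0 with the stricter filter, median centring, quantile normalization and only AFFX controls left out. It was 93 with all 13 arrays in the fit, 53 with array weights (0.47 to 0.92 for maternal and 1.195 to 2.57 for peer arrays), 15 without a filter on low values, 10 with a trended robust prior and 5 without maternal arrays 2 and 5, an alternative chosen after seeing the data. Leaving out single arrays gave 0 to 2330. Probe sets without overlap numbered 2497, or 3779 without the filter, 1206 with the stricter one, 4716 without maternal arrays 2 and 5, and 2698 to 5418 without single arrays, where fewer arrays make non-overlap easier; the highest were 5418 without maternal array 1 and 3780 without peer array 4. The difference in 3' to 5' ratio was -0.38 to -0.22 without single arrays, passing an unadjusted threshold without peer array 1 (-0.38, exact permutation p = 0.0357). Of 1944 values of 110 named probe sets under alternatives, 113 newly passed and 2 changed sign, both in the red cell list: BLVRB (0.014 without peer array 2) and ALAS2 (0.29 without maternal arrays 2 and 5). Of 390 list medians, 9 moved by more than the spread between animals. No paired analysis was possible because the labels give no replicate numbers.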

Other observations

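Several genes outside the lists differed at more than 1 probe set. Of 3397 genes with 2 or more tested probe sets, 122 had at least 2 probe sets with all peer above all maternal values and 22 the reverse. The genes below were chosen after their values were seen. ITGA6, the integrin alpha 6 chain, was higher at 3 of 3 probe sets (0.73 to 1.02), as were the kinase gene DYRK2 (0.68 to 0.97) and the nuclear receptor corepressor gene NRIP1 (0.56 to 0.90). TOB1, an antiproliferative factor of resting T cells, was higher at both probe sets (0.73 and 0.98), and so was the autophagy protease ATG4C (0.76 and 0.77). SYNCRIP, an RNA-binding protein, was higher without overlap at 4 of 7 probe sets. On the lower side, LMNA, encoding nuclear lamins A and C, was lower without overlap at 3 of 6 probe sets (all 6 between -0.56 and -0.16), the chromatin reader gene BRD2 at 2 of 4 and the adaptor gene APBB2 at 2 of 3 (all 3 between -0.83 and -0.52).

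For 8 genes, probe sets of the same gene separated the groups in opposite directions. SRP68, a subunit of the signal recognition particle, gave -0.93 and 0.40, DEGS1, a ceramide-synthesis desaturase, -0.51, -0.39 and 0.54, and NKTR, a cyclophilin-related protein, -0.28 and 0.45.

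Some probe sets outside the interferon list were highest in the same maternal animals as that list. The probe set annotated as AMBP, a plasma protein of liver, measured 7.89, 11.40, 7.82, 8.42 and 11.70 in maternal and 7.09 to 7.56 in peer animals. That annotated as the ribosomal protein gene RPL24 measured 10.73, 13.31, 11.07, 11.74 and 13.57 against 10.19 to 10.79. In both, maternal animals 2 and 5 were the highest of the 9.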
